A study of Mus musculus with 3 samples.

Results

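Rab GTPases, the small GTP-binding proteins that mark membrane compartments, were examined in type 2 innate lymphoid cells (ILC2s) of the mouse lung. Members were the rows of the expression table whose symbol is Rab followed by a number and at most 1 letter and 1 further digit, which gave 59 of 16129 listed genes. Rab-like genes and genes of Rab partners are outside that rule. The cells were sorted by FACS from digested lung tissue of wild type animals after treatment with the alarmin IL-33 in vivo, and the 3 libraries, numbered 1 to 3, form 1 group. No untreated group was analysed here, so the comparisons are between genes within the same libraries. The sources used here do not state the sorting markers, the IL-33 dose or the age of the mice, nor whether each library is a separate animal or a pool, and part of the spread may therefore be technical.

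A Rab protein cycles between a GDP-bound form held in the cytosol and a GTP-bound form on a membrane, where it recruits effectors that move, tether or fuse vesicles. Exchange factors load GTP, GTPase-activating proteins end the signal, escort proteins and a geranylgeranyl transferase attach lipid to cysteines at the C terminus, and GDP dissociation inhibitors take the inactive protein off the membrane. In lymphocytes these proteins carry newly made cytokines to the surface, take up and recycle receptors, and deliver cargo to lysosomes. The members were grouped from textbook roles into secretory genes (ER and Golgi traffic, and exocytosis), endocytic genes (early endosomes, and late endosomes with lysosomes), recycling genes, genes of lysosome-related organelles, and others.

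The lipid-bearing end is encoded by the last codons. The last 30 coding bases before the stop codon are shown for 7 members: Rab7, Rab37, Rab1b, Rab11b and Rab8b, highly expressed members which between them show 4 ways of placing the cysteines, and Rab4b and Rab27a, which stand for recycling and granule docking. The bases are in the sense direction from GENCODE M21 (GRCm38), and capitals mark cysteine codons.

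Rab7: gccaaggcctccgcagaaagcTGCagtTGT
Rab37: aagaagcgctccagcTGCTGCtcctttgtg
Rab1b: cctgtgaagcctgctagcggtggcTGCTGC
Rab11b: cccaacaagctgcagTGCTGCcagagcctg
Rab8b: aagaccagtttcttccgcTGTtctctgctt
Rab4b: caagccgtggcccctcagcccTGTggcTGC
Rab27a: gaggagaaggagaaggggttgTGTggcTGT

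All 59 members had a complete coding sequence in that annotation, of 194 to 725 codons with a median of 215. The longest belonged to Rab44, which carries additional domains. The ends fell into 6 patterns. A cysteine, 1 other codon and a final cysteine, as in Rab7, closed 20 members, of which 15 were detected. Adjacent cysteines closed 15 members as in Rab1b, of which 12 were detected, and were followed by 3 further codons in 6 members as in Rab37 and Rab11b, of which 4 were detected. They were followed by 2 codons in 6 members, of which 5 were detected, and by 1 codon in 3 members, of which 1 was detected. In 9 members, of which 6 were detected, the last 4 codons held a single cysteine codon, the fourth from the end, as in Rab8b. Rab40c, Rab40b and Rab38 among these have a further cysteine codon upstream within the last 30 bases. The last 30 bases of Rab18, also of this pattern, are not reported here. Every pattern thus occurred among the detected members.

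Levels are given in TPM, which divides reads by transcript length and scales each library to the same total, as the mean ± SD over 3 libraries. Detection required at least 1 TPM in every one of the 3 libraries. By this rule 43 of 59 members (72.9%) were detected, beside 67.3% of all listed genes. A mean of at least 10 TPM was reached by 35 members (59.3%), beside 51.2% of all listed genes, and a mean of at least 100 TPM by 12 members (20.3%), beside 10.3%. The median of the members was 18.5 TPM and that of all listed genes 11.2 TPM. The detected share was near the background, and the share at or above 100 TPM was above it. Together the members held 3038 ± 17.4 TPM, or 0.304% of all transcripts, and the 10 highest held 56.4% of that sum.

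The libraries held between 19883728 and 19976129 estimated reads, and detected members had between 47.0 reads per library (Rab26, replicate 1) and 7050 reads (Rab8b, replicate 2). The identity of the cells was checked with markers. All 12 ILC2 markers averaged 100 TPM or more, among them the IL-33 receptor gene Il1rl1 (1064 TPM). Of the macrophage and monocyte list 11 of 15 listed genes were detected, of the epithelial list 7 of 12, and of the dendritic list 4 of 7. The neutrophil and eosinophil list had 3 of 7, and the mast cell and basophil list and the alpha-beta T cell list 2 of 5 each. The NK and endothelial lists had 2 of 8 each, and the B cell and fibroblast lists 1 of 8 each. By the same rule 67.3% of all listed genes were detected. Single genes of these lists stood well above 1 TPM. Among them were Kit (155 TPM, mast cell and basophil), Pecam1 (79.8 TPM, endothelial), Bst2 (68.7 TPM, dendritic), Cdh1 (23.3 TPM, epithelial) and Cd79b (21.9 TPM, B cell). Others were Lyz2 (39.1 TPM) and Ear2 (11.7 TPM) of the macrophage and monocyte list. Scgb1a1 (15.3 TPM) and Sftpc (9.40 TPM) of the epithelial list also stood above 1 TPM. The summed macrophage markers stood at 612, 592 and 751 TPM in replicates 1, 2 and 3, led by Chil3 (375 ± 74.7) and Ctss (198 ± 7.07). The ILC2 markers summed to 9841, 9564 and 9625 TPM. These are bulk libraries, in which fewer cells of a type and less RNA per cell cannot be told apart.

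**Figure D1:**
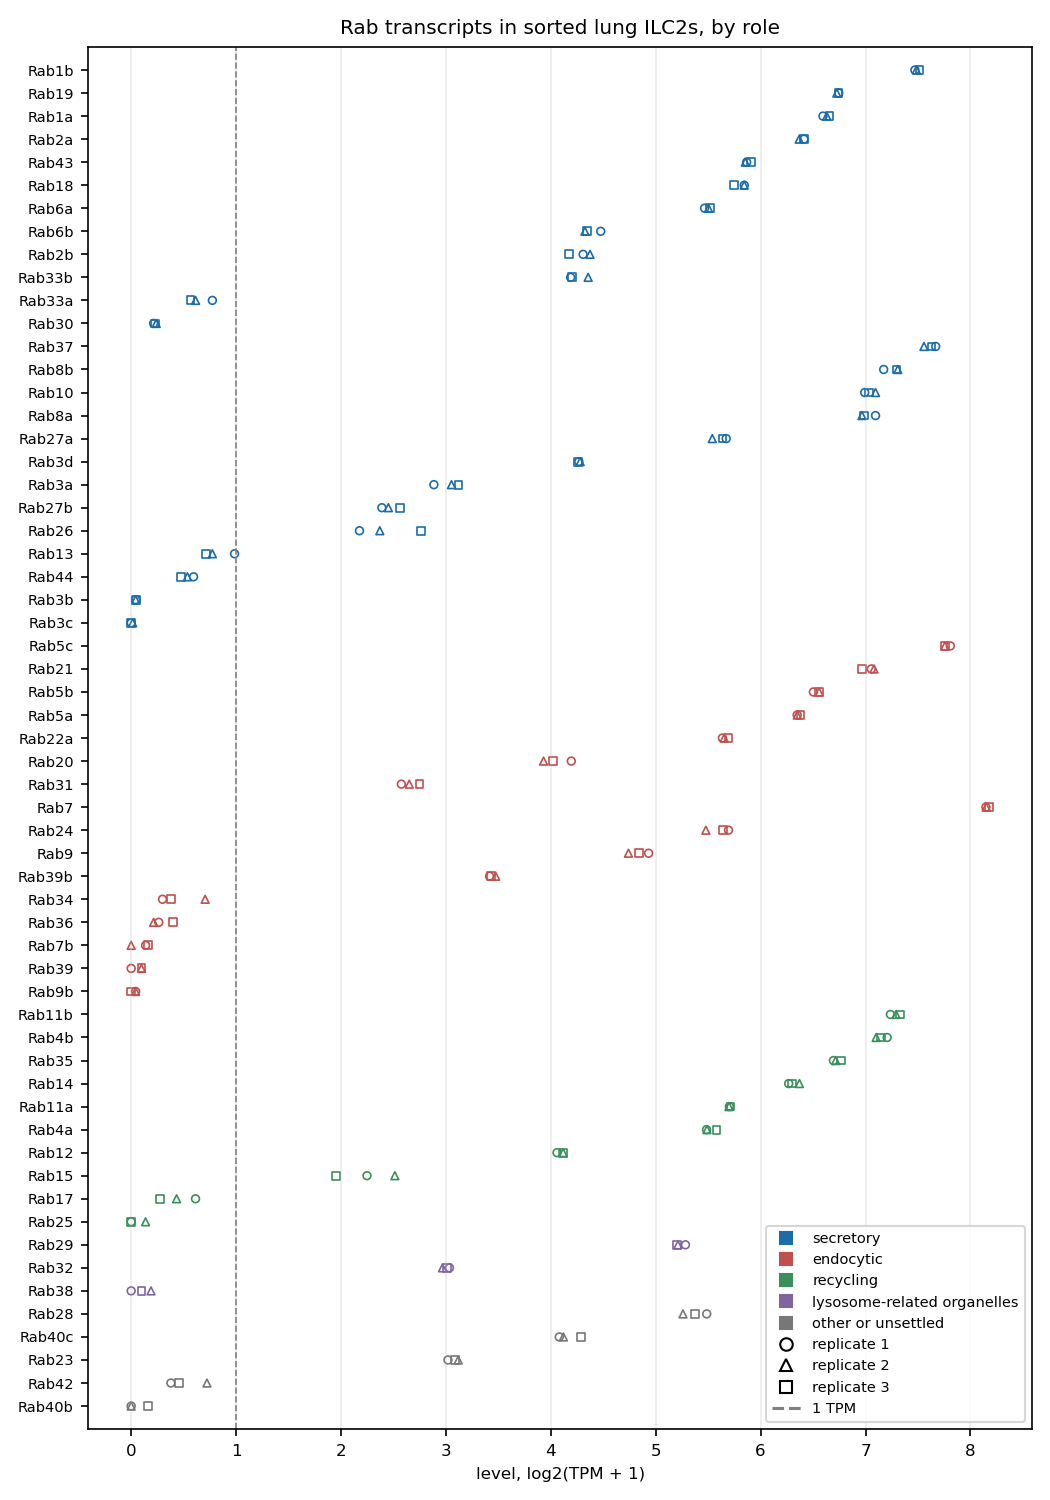
Level of each of the 59 Rab genes as log2(TPM + 1) in each library, with colours for roles and marker shapes for replicates 1 to 3. The 3 libraries lie close together for members above 10 TPM, and 16 members lie left of the 1 TPM line in all libraries.

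Among secretory members, genes of ER and Golgi traffic are given first. Rab1b, which with Rab1a drives transport from the ER to the Golgi, stood at 176, 178 and 182 TPM in replicates 1, 2 and 3 and was the highest of this group. Rab19, a Golgi-associated member whose function is less well known, had 106, 105 and 106 TPM. Rab1a reached 97.9 ± 2.14 TPM and Rab2a, which acts between the ER and the Golgi, 83.4 ± 1.52 TPM. Rab43 (57.7 ± 1.11 TPM, a Golgi Rab), Rab18 (55.2 ± 2.17 TPM, found on the ER and on lipid droplets) and Rab6a (44.1 ± 0.840 TPM, which serves retrograde Golgi traffic) followed. Lower but detected were Rab6b (19.9 ± 1.20 TPM), Rab2b (18.5 ± 1.35 TPM) and Rab33b (18.04 ± 1.252 TPM), which binds an autophagy factor. Rab33a and Rab30 were below 1 TPM in all libraries. In all, 10 of 12 members of this group (83.3%) were detected, beside 67.3% of all listed genes.

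Exocytosis genes covered a wider range, with 9 of 13 detected (69.2%, near the 67.3% of all listed genes). Rab37, a Rab of secretory granules known from mast cells, was the highest secretory member of all at 202, 187 and 197 TPM in replicates 1, 2 and 3, which put it at rank 726 of the 16129 listed genes. It lies at chr11:115091331-115162773 in GRCm38.p6. Rab8b (143, 157 and 156 TPM), Rab10 (126, 136 and 130.0 TPM) and Rab8a (136, 124 and 125 TPM), which carry cargo from the trans-Golgi or from storage vesicles to the plasma membrane, came next. The library ranges of Rab10 and Rab8a overlapped, and that of Rab8b lay above both. Rab27a, which docks lytic and secretory granules, had 49.97, 45.5 and 48.8 TPM. Rab3d, of regulated exocytosis, stood at 18.3 ± 0.146 TPM and its neuronal relative Rab3a at 7.13 ± 0.667 TPM. Rab27b (4.54 ± 0.346 TPM) and Rab26 (4.49 ± 1.16 TPM) were the lowest detected exocytosis genes. Rab13, which serves tight junctions in epithelia, Rab44, Rab3b and Rab3c were below 1 TPM in all libraries.

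The endocytic group held the highest Rab of all. Rab7, which directs late endosomes to lysosomes, stood at 283, 283 and 289 TPM in replicates 1, 2 and 3, at rank 464 of the listed genes. Its gene lies at chr6:87999106-88045270 (GRCm38.p6, as are the positions that follow). Rab5c, one of the paralogs that control fusion of early endosomes, had 223, 215 and 215 TPM and was next in the family (chr11:100715003-100738215). All 7 early endosomal members were detected, beside 67.3% of all listed genes. After Rab5c came Rab21 (130.1 ± 5.45 TPM, which binds integrins during uptake), Rab5b (92.0 ± 2.01 TPM), Rab5a (81.1 ± 1.06 TPM), Rab22a (49.6 ± 1.04 TPM), Rab20 (15.6 ± 1.57 TPM, which acts on phagosomes) and Rab31 (5.32 ± 0.382 TPM). The late endosomal and lysosomal group had 4 of 9 detected (44.4%, beside the same 67.3%). Beside Rab7 these were Rab24 (47.8 ± 3.75 TPM), linked to autophagy, Rab9 (27.6 ± 1.90 TPM), which returns receptors from late endosomes to the Golgi, and Rab39b (9.86 ± 0.232 TPM), best known from neurons. Rab7b, Rab9b, Rab34, Rab36 and Rab39 were below 1 TPM in all libraries.

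Recycling genes were detected in 8 of 10 cases (80.0%, beside 67.3% of all listed genes). The role groups are small, so their detected shares are not read as traits of a role. Rab11b, of the slow route through recycling endosomes, was highest at 150, 156 and 160.1 TPM in replicates 1, 2 and 3. Rab4b, of the fast route from early endosomes, had 147, 136 and 141 TPM, and its library range lay below that of Rab11b. Rab35 (105 ± 2.64 TPM), another fast recycling Rab, and Rab14 (78.5 ± 2.89 TPM), which links the Golgi with endosomes, followed. Rab11a (51.1 ± 0.254 TPM), Rab4a (44.8 ± 1.73 TPM), Rab12 (16.1 ± 0.396 TPM) and Rab15 (3.78 ± 0.915 TPM) were lower. The epithelial Rabs Rab25 and Rab17 were below 1 TPM in all libraries. Outside these roles, Rab29 (36.6 ± 1.17 TPM) and Rab32 (7.02 ± 0.186 TPM) of lysosome-related organelles were detected and Rab38 of melanosomes was not. Rab28 (40.5 ± 3.26 TPM), known from photoreceptor cilia, Rab40c (16.9 ± 1.39 TPM), a substrate adaptor of a ubiquitin ligase, and Rab23 (7.42 ± 0.289 TPM), a regulator of hedgehog signalling, were detected, while Rab40b and Rab42 were not.

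As sums, the secretory members held 45.1% of the family total, the endocytic members 31.7%, the recycling members 19.6%, lysosome-related organelles 1.44% and the others 2.15%. The secretory sum was 1371 ± 6.62 TPM from 25 genes, the endocytic sum 962 ± 6.88 TPM from 16 genes and the recycling sum 596 ± 7.30 TPM from 10 genes. The SD of each of these sums was under 2% of it in all 3 cases. A contrast of the mean log2(TPM + 1) per gene gave a secretory level of 4.26 ± 0.0051 and an endocytic level of 3.94 ± 0.012, a difference of 0.31 ± 0.0075 (SD, n = 3 libraries). Recycling genes averaged 4.55 ± 0.034, and recycling minus endocytic was 0.61 ± 0.046. Secretory minus recycling was -0.30 ± 0.039. Each of these differences had the same sign in 3 of 3 libraries, and each had p = 0.25 in the exact two-sided permutation test that flips signs, raw and after Benjamini-Hochberg adjustment over the 3, which is the smallest p that 3 libraries allow. Signs depended on the setting. Among members with a mean of at least 1 TPM, secretory minus endocytic was -0.17 and recycling minus endocytic -0.017. With the median of the members in place of their mean, secretory minus endocytic was -0.045. Without division by length, secretory minus recycling was 0.12. No order of the roles per gene therefore held under all of these settings.

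**Figure D2:**
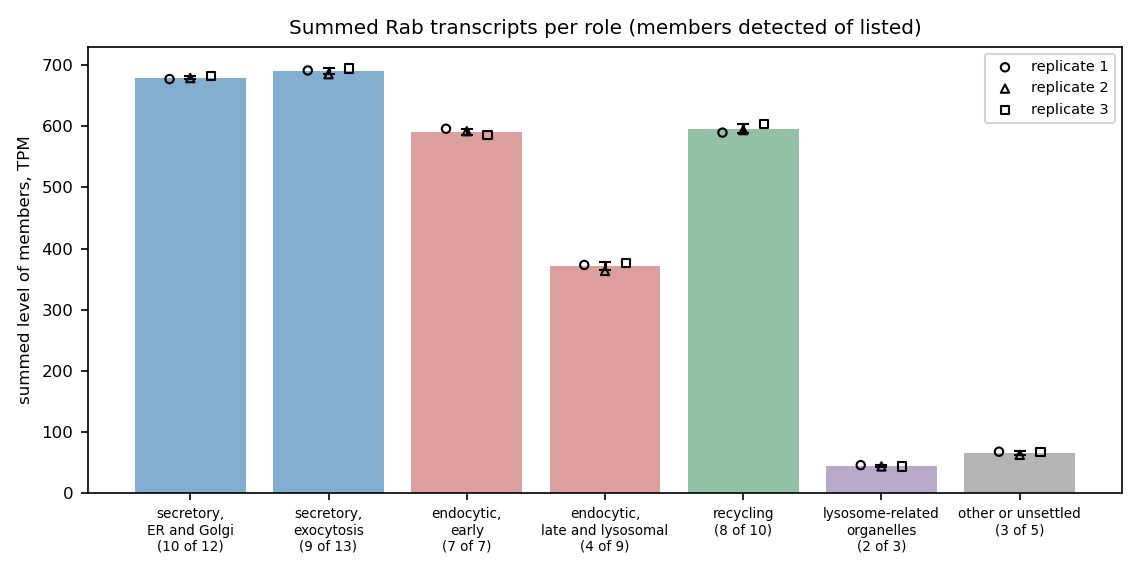
Summed TPM of the members of each role, with bars for the mean of 3 libraries, error bars for the SD and open symbols for the libraries. The ER and Golgi group and the exocytosis group held near equal sums of 680.0 and 691 TPM, and the late endosomal and lysosomal group held 371 TPM.

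Paralogs were compared next. They formed 20 sets holding 44 members, and the member with the highest mean was set against each other member of its set in 24 pairs. A set was called split when that member was at least 2-fold above the next on the TPM scale in each library, and 16 of 20 sets met this. In 10 sets all members were detected, in 7 a single member was, in 1 none was, and the remaining 2 sets, Rab3 and Rab11, had 2 detected members each. The sign of the difference was the same in all 3 libraries for 23 of 24 pairs. In the exact two-sided permutation test of signs, p was 0.25 for each of those 23, the smallest it can give, and 0.261 after Benjamini-Hochberg adjustment over the 24. The leading member of a set was chosen by its level, so these differences describe the libraries. No share of split sets was computed for other groups of listed genes. The count of 16 is therefore not read as a trait of Rab paralogs.

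**Figure D3:**
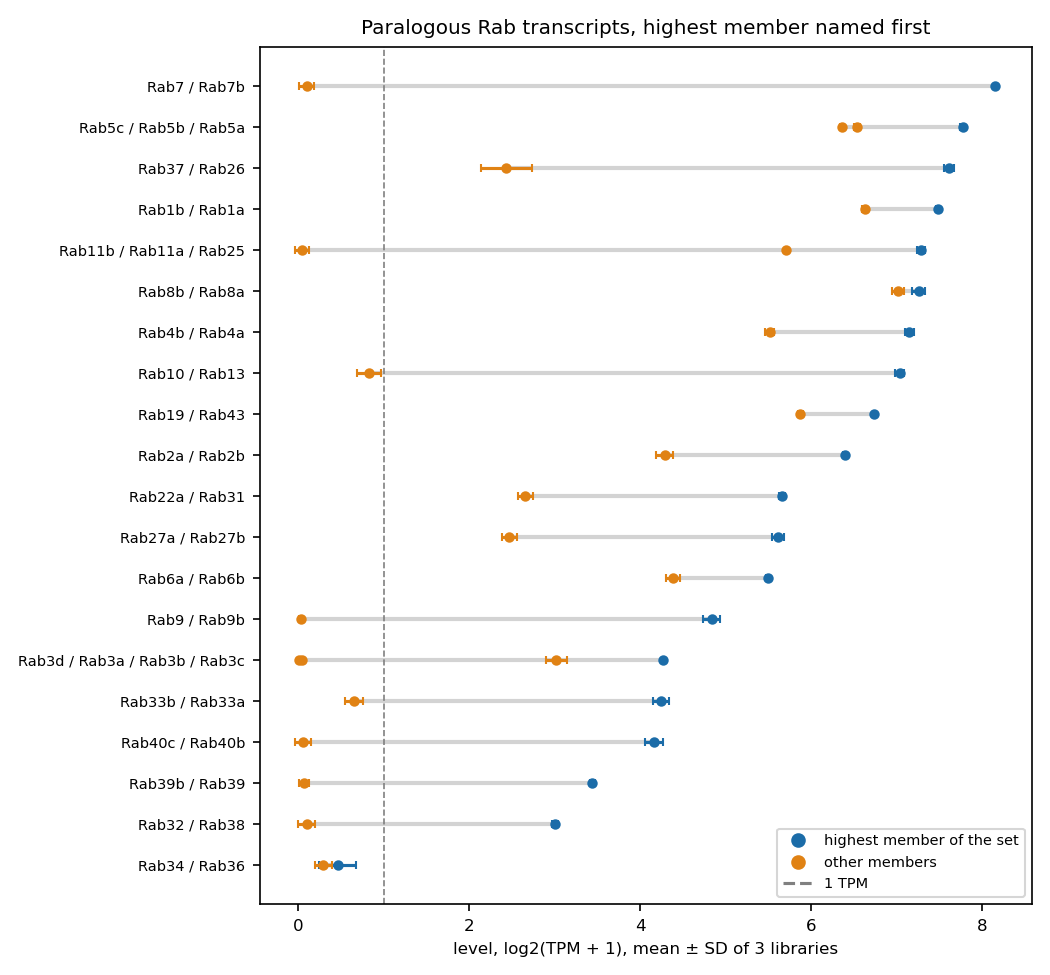
Level of each paralog as log2(TPM + 1), mean ± SD of 3 libraries, in 20 sets with the highest member in blue and the others in orange. Grey lines join the lowest and highest member of a set. The line is longest for Rab7 and Rab7b, where Rab7b lies near 0, and is also long for Rab37 and Rab26, both detected. The Rab8 set shows the shortest line among sets with detected members.

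In secretory sets, Rab37 exceeded Rab26 by 57.5-, 44.9- and 34.1-fold in replicates 1, 2 and 3, with Rab26 at 3.52, 4.17 and 5.78 TPM. Rab27a exceeded Rab27b by 11.8-, 10.2- and 9.91-fold, a difference of 3.15 ± 0.12 in log2(TPM + 1). Rab10 stood 129-, 191- and 203-fold above Rab13, which had 14, 10 and 9 reads. For Rab3d over Rab3a the folds were 2.86, 2.52 and 2.36, while Rab3b had 1 read in each library and Rab3c 1.09 reads in replicate 2 alone. Rab2a exceeded Rab2b by 4.48-, 4.14- and 4.93-fold, Rab33b exceeded Rab33a by 24.3-, 36.8- and 36.2-fold, and Rab6a exceeded Rab6b by 2.03-, 2.33- and 2.32-fold. Several secretory pairs were closer. Rab1b over Rab1a gave 1.84-, 1.82- and 1.82-fold, Rab19 over Rab43 gave 1.85-, 1.85- and 1.80-fold, and Rab8b over Rab8a gave 1.06-, 1.27- and 1.24-fold. The Rab8 difference was 0.24 ± 0.14 in log2(TPM + 1), and its library values ran from 143 to 157 TPM for Rab8b and from 124 to 136 TPM for Rab8a without overlap.

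Endocytic and recycling sets were split as well. Rab5c exceeded Rab5b by 2.49-, 2.31- and 2.31-fold, though by 1.48-, 1.38- and 1.37-fold in reads not divided by length, and Rab5a by 2.77-, 2.67- and 2.61-fold. Rab22a exceeded Rab31 by 9.82-, 9.34- and 8.87-fold. Rab7b, which in other cells acts between late endosomes and the Golgi, had 4, 0 and 5 reads beside 5765, 5696 and 5792 reads of Rab7. Rab9b had 2.16 reads in all 3 libraries together, against 342, 294 and 311 reads of Rab9. Rab39b stood at 9.68, 10.1 and 9.77 TPM with Rab39 at 0, 0.07 and 0.07 TPM. Rab11b was 2.93-, 3.05- and 3.11-fold above Rab11a, and Rab25 had 1 read in replicate 2 and none in the others. Rab4b was 3.35-, 3.11- and 3.01-fold above Rab4a. The exception was Rab34 with Rab36, both below 1 TPM, at 0.23, 0.63 and 0.30 TPM and 0.20, 0.16 and 0.32 TPM in replicates 1, 2 and 3, whose order changed between libraries. Rab32 had 139, 130.1 and 134 reads while Rab38 had 3 in all. Rab40c stood at 15.9, 16.4 and 18.5 TPM, beside 2 reads of Rab40b.

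Of the 16 undetected members, 12 belong to a paralog set and 10 of these have a detected partner in it. Their reads over all 3 libraries ranged from 1 for Rab25 to 94.0 for Rab30, and 7 had 5 or fewer. The highest of them were Rab13, at a mean of 0.777 TPM, Rab33a at 0.573 TPM, Rab44 at 0.45 TPM and Rab42 at 0.44 TPM. Rab34 averaged 0.387 TPM, Rab17 0.363 TPM, Rab36 0.227 TPM and Rab30 0.17 TPM. The other 8, which are Rab7b, Rab38, Rab39, Rab40b, Rab25, Rab3b, Rab9b and Rab3c, averaged between 0.00333 and 0.0733 TPM, so these genes were near the limit of this depth. Where a library held 0 reads of a member, up to 3 reads remain possible, which allows 0.3 TPM for Rab25, 0.21 TPM for Rab38, 0.18 TPM for Rab40b, 0.105 TPM for Rab39, 0.084 TPM for Rab9b, 0.074 TPM for Rab7b and 0.028 TPM for Rab3c. These limits cover counting error only. They lie below the detection level of 1 TPM in each case.

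Long identical stretches were rare between paralogs. The coding sequences of the 24 pairs were 63.3% to 79.3% identical over aligned bases, with a median of 73.7%, and no pair shared a run of 50 bases. The longest run shared within a pair joined Rab1b (from coding base 298) and Rab1a (from coding base 307). It is shown because it marks how far the closest stretch between paralogs extends.

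Rab1b and Rab1a: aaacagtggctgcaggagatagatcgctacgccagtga

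Overlap with other loci was also examined. Words of 50 bases of the representative transcript were sought in transcripts of other genes in GENCODE M21, in the same and the opposite direction. For 34 of 59 members no word occurred there, and for 11 more than 10% of the words did. Matches in the 2 directions were not told apart. A word in a transcript of another member was found for 3 members, Rab8a, Rab27a and Rab11b. Among listed genes alone, that share exceeded 10% for 2 members, Rab24 (43.5%, with Prelid1) and Rab6a (20.8%, with Mrpl48). For Rab43 (90.3%, Gm45140), Rab4b (80.3%, Gm21983), Rab2b (74.2%, Gm43766) and Rab7 (27.8%, Rab7-ps1) the other gene is not among the listed genes, and how the authors' annotation treated it was not tested. The share lay between 13.0% and 22.9% for Rab20, Rab33b, Rab39b, Rab11b and Rab5b, again with genes that are not listed. The levels of these 11 members may therefore be less certain than their SD shows. For Rab4b and Rab43 the uncertainty touches the order within their paralog sets. It also touches the split calls of sets that hold these members. Among them are the Rab2 set and the Rab6 set, whose lowest fold was 2.03 at a cut of 2.

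Length also affected the order. Rab7 was the highest member per length, while Rab8b, whose reads lie on a longer transcript, took the most reads, at 343 CPM (reads scaled to the library total), against 288 CPM for Rab7. Rab8b then exceeded Rab8a by 2.84-fold in CPM, against 1.19-fold in TPM. Rab19 lay below Rab43 in CPM, at 0.654 of its value, against 1.83-fold above it in TPM. Among pairs that kept their order, the fold also differed without division by length. It was 1.17 in CPM against 1.83 in TPM for Rab1b over Rab1a, and 4.48 against 10.6 for Rab27a over Rab27b. It was 5.05 against 9.32 for Rab22a over Rab31, and 6.89 against 2.56 for Rab3d over Rab3a. For Rab37 over Rab26 it was 67.4 in CPM and 43.6 in TPM, and for Rab10 over Rab13 393 and 168. The lengths behind the deposited TPM were not examined. Representative transcripts were longer for Rab27a (2979 bases) than for Rab27b (2671), and for Rab22a (7155) than for Rab31 (3473). The moves of these folds ran against that order. For Rab8b (4733 bases) and Rab8a (4550) the lengths are too close for the move seen. For the other pairs above, the moves ran with these lengths. The TPM folds of the Rab8, Rab27 and Rab22a sets thus rest on unexamined lengths. TPM was kept because levels of different genes are compared.

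**Figure D4:**
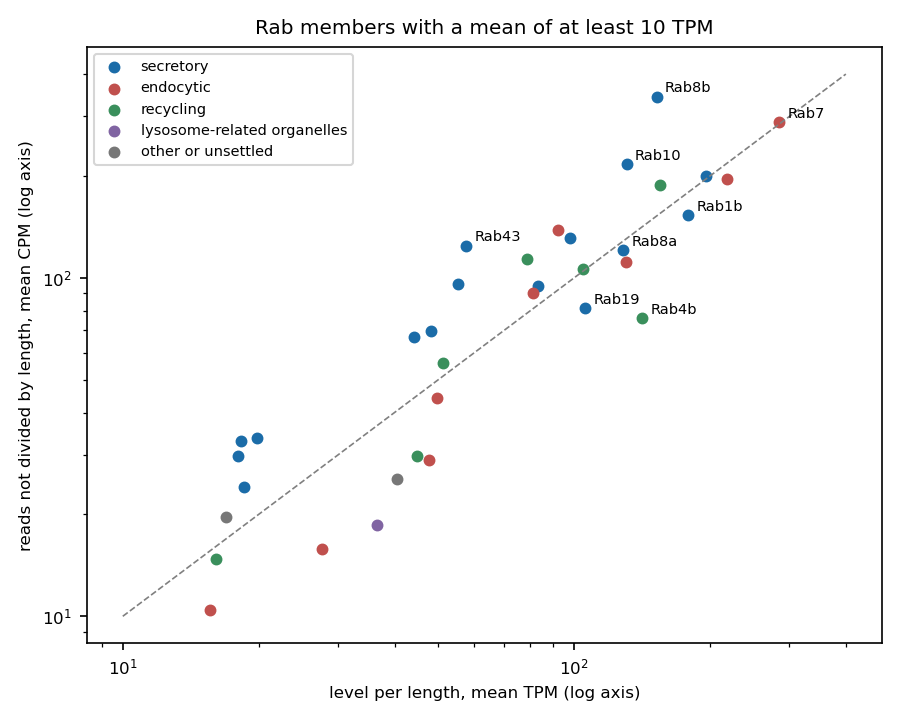
Reads scaled to the library total and not divided by length (CPM) against level per length (TPM) for the 35 members with a mean of at least 10 TPM, both axes logarithmic, with equality dashed. Rab8b has the most reads, Rab7 the highest TPM, and Rab43 and Rab19 exchange places between the axes.

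Between libraries the members varied about as much as other genes of their level. Among the 35 members averaging 10 TPM or more, the median ratio of the highest to the lowest library was 1.07, and 1.08 among all 8262 listed genes at that level. The highest library was 25% or more above the lowest in 0 of these members, beside 2.47% of all such genes, a share that comes to under 1 gene in 35. The largest was 1.22 for Rab20, at 17.3, 14.3 and 15.2 TPM in replicates 1, 2 and 3. Their coefficient of variation had a median of 3.66% and ran from 0.496% for Rab11a to 10.0% for Rab20. Below that level 2 detected members spread further, Rab26 with a ratio of 1.64 and Rab15 (3.75, 4.71 and 2.88 TPM) with 1.64, on 47.0 to 138 reads per library. Replicate 3 over the mean of the other libraries was 1.503 for Rab26. The same ratio was 1.248 for the summed macrophage and monocyte markers, 1.64 for neutrophil and eosinophil markers (5.18, 5.42 and 8.70 TPM in replicates 1, 2 and 3) and 1.44 for alpha-beta T cell markers (8.25, 9.45 and 12.7 TPM). It was 1.24 for NK cell markers, 1.14 for fibroblast and smooth muscle markers and 1.09 for B cell markers. For the other lists it lay between 0.942 (epithelial) and 1.02 (endothelial), with ILC2 markers at 0.992. The part of these cells in the Rab26 value was not tested. In the order of all 59 members, 37 of 58 pairs of neighbours overlapped in their library ranges, so the order within those pairs is not resolved. The first 4 places, Rab7, Rab5c, Rab37 and Rab1b, did not overlap with their neighbours.

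The starts of the genes were described by CpG dinucleotides in a window of 300 bases, from 250 before to 50 after the annotated start (RefSeq, GRCm38.p6). A window was available for 48 members, and the one with the most CpG was taken where a gene had several. Detected members had a median of 26.0 CpG (37 genes, 9 to 45) and undetected members 11.0 (11 genes, 5 to 27). The motif CG occurred at least 15 times in 31 of 37 detected members (83.8%) and in 5 of 11 undetected members (45.5%), beside 76.5% of detected and 37.7% of undetected listed genes. The members thus showed shares near those of all listed genes with the same call. Exceptions ran both ways, with 9 CpG for the detected Rab19 and Rab9, and 27 and 25 for the undetected Rab39 and Rab13. The windows of Rab33b (28 CpG, chr3:51483716-51484015, plus strand) and Rab33a (7 CpG, chrX:48519035-48519334, plus strand) are shown as a paralog pair, with CG in capitals. The detected gene has the CpG-rich window. The annotated gene start lies within the window for Rab33b (51483966) but upstream of it for Rab33a (48513663). The Rab33a window thus marks a start inside the gene, and the pair does not compare like positions. Windows of some other members, detected and undetected, also lie inside the gene.

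Rab33b: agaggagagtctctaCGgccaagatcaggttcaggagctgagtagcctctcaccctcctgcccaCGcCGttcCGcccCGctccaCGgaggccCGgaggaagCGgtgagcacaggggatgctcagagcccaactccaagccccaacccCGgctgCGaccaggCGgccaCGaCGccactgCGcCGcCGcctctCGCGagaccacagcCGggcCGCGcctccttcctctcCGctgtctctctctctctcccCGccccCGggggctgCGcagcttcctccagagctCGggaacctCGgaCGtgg
Rab33a: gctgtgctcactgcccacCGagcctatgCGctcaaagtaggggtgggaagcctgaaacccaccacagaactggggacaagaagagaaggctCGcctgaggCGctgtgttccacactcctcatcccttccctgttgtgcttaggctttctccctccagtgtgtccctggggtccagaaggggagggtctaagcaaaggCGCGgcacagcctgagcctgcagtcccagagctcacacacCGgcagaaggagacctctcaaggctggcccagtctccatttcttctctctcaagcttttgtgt

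Of the genes that act on Rab proteins or serve as their effectors, 152 of 176 listed genes (86.4%) were detected, beside 67.3% of all listed genes. All 13 genes of prenylation, escort and GDP dissociation were detected, with a median of 51.7 TPM. Gdi2, the widely expressed GDP dissociation inhibitor, led at 440.3 ± 15.6 TPM. Rabac1 (257 ± 2.32 TPM), which releases prenylated Rabs from the inhibitor, and Yipf3 (99.97 ± 3.21 TPM), a Golgi membrane protein, were also among the 4 highest. The escort gene Chm had 37.0 ± 0.649 TPM, against 3.25 ± 0.050 TPM for its paralog Chml. The transferase subunits Rabggtb and Rabggta stood at 51.7 ± 5.55 and 24.4 ± 0.694 TPM.

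Of exchange factors 43 of 51 listed genes were detected, with a median of 32.5 TPM. The highest were Rinl (216 ± 8.97 TPM, of the Rab5 and Rab22 exchange family), Dennd5a (130.3 ± 4.18 TPM), Dennd1c (111 ± 1.57 TPM, of the Rab35 exchange family) and Sbf1 (105 ± 4.41 TPM). Rinl and Rin3 (63.5 ± 2.55 TPM) contrasted with Rin1 and Rin2, which were below 1 TPM in all libraries, as were Dennd2a, Dennd2c and Dennd5b. Genes of the complex that loads Rab7 were detected, with Ccz1 at 58.5 ± 1.59 TPM, Mon1b at 22.2 ± 1.14 TPM and Mon1a at 18.3 ± 1.14 TPM. Of GTPase-activating proteins 35 of 39 were detected, with a median of 14.3 TPM. Tbc1d10c, a lymphocyte protein also called carabin, led at 233 ± 5.65 TPM, above Tbc1d10b (81.0 ± 1.24 TPM), Tbc1d9b (74.9 ± 2.65 TPM) and Rabgap1l (72.7 ± 1.68 TPM). Grtp1, Tbc1d16 and Tbc1d8 were below 1 TPM in all libraries.

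Effectors were each assigned to a single group of Rabs. A listed gene may also serve Rabs of another group, and binding to the members detected here was not tested. For secretory Rabs 24 of 31 listed genes were detected. Ehbp1l1 (145 ± 3.56 TPM) and Mical1 (125 ± 1.04 TPM), partners of Rab8 and related Rabs, were highest. The Rab27 effectors Sytl2, Sytl1 and Unc13d, which tether and prime secretory granules, had 119 ± 1.89, 88.7 ± 4.84 and 75.2 ± 3.26 TPM, and Sytl3 42.4 ± 1.99 TPM. Other Rab27 effectors, the melanosome linker Mlph and its relative Myrip, Exph5, Sytl4 and Sytl5, were below 1 TPM in all libraries. For endocytic Rabs 24 of 25 were detected, led by Rilpl2 (85.6 ± 2.49 TPM), Pik3c3 (84.7 ± 1.99 TPM, the lipid kinase of endosomes), Vps41 (47.8 ± 1.91 TPM) and Wdr91 (39.5 ± 0.494 TPM). The Rab7 effector gene Rilp was the undetected one at 0.243 ± 0.0404 TPM, while the Rab7 effectors Fyco1 and Plekhm1 had 25.01 ± 0.416 and 23.5 ± 0.299 TPM. The Rab5 effectors Rabep1 and Eea1 stood at 22.02 ± 0.881 and 16.4 ± 0.0929 TPM. For recycling Rabs 13 of 17 were detected, led by Rab11fip1 (65.3 ± 1.56 TPM), Rufy1 (64.0 ± 2.53 TPM, a Rab4 effector), Exoc5 (43.2 ± 0.702 TPM) and Micall1 (29.2 ± 0.790 TPM). The motor gene Myo5a (12.3 ± 0.383 TPM) was detected and Myo5b was not, nor were Fscn1 and Micall2. All 7 genes of the Rab-like list were detected. The highest entry, Ran (259 ± 7.27 TPM), is a nuclear transport GTPase placed in this list and not a Rab-like gene. Below it came Rabl6 (39.5 ± 2.58 TPM), Ift27 (30.4 ± 3.65 TPM) and the large GTPase gene Cracr2a (18.8 ± 0.730 TPM).

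**Figure D5:**
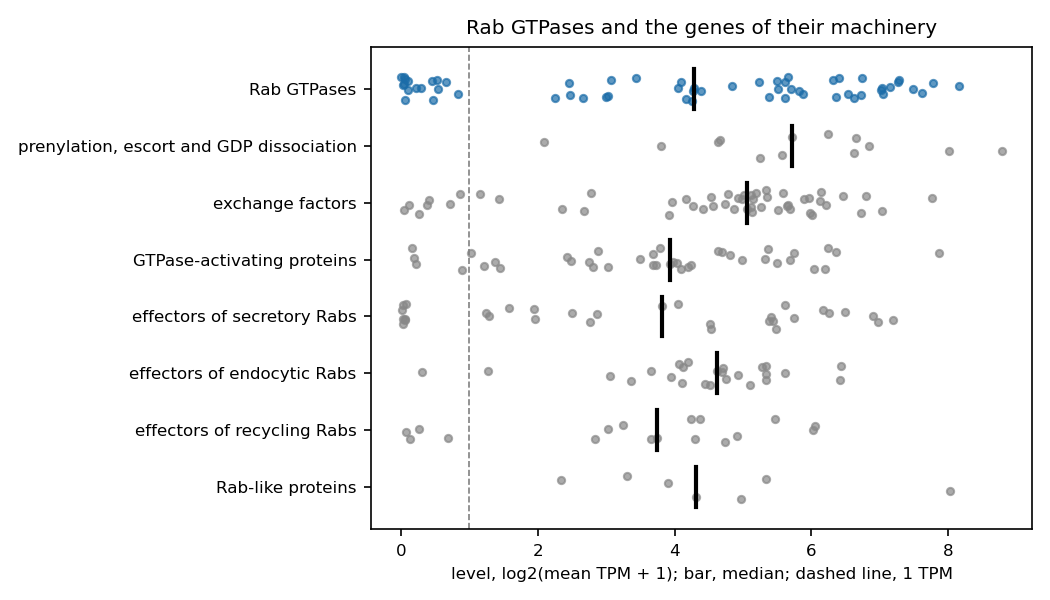
Mean level of each Rab gene and of each gene of the Rab machinery lists as log2(mean TPM + 1), with a bar for the median of each list and a dashed line at 1 TPM. The Rab genes form a group near 0 and a group above it, and the prenylation, escort and GDP dissociation list lies above 1 TPM throughout.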

How the data were processed

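ILC2s from the lungs of IL-33-treated mice were profiled in 3 libraries. Per the submitters' processing notes, Bowtie2, RSEM 1.3.1 and GRCm38.p6 were used; their order, settings and gene annotation were not given in these sources. The authors deposited expected counts, which are not whole numbers, TPM, FPKM and a depth-scaled signal. That deposited signal equalled the expected count rounded up and multiplied by 1.0014, 1 or 0.997 in replicates 1, 2 and 3 (relative tolerance 1e-06) and was not used further. Levels are the deposited TPM. Differences are on the log2(TPM + 1) scale and so understate the folds of low genes.

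Members and lists were chosen with earlier results of these data known. Named genes are all members, and for each machinery list the 4 highest (1 gene is not reported here) and up to 3 members below 1 TPM in alphabetical order; others (Sytl1, Sytl3, Unc13d, Sytl4, Sytl5, Rin3, Rin1, Rin2, Ccz1, Mon1a, Mon1b, Chm, Chml, Rabggta, Rabggtb, Fyco1, Plekhm1, Rabep1, Eea1 and Myo5a) were chosen after their values were seen, for their place beside a member. Marker lists are given by counts, with fewer named genes than planned. Differences were taken within each library and tested with the exact sign-flip permutation test. All 59 members matched RefSeq by gene ID. Other settings tried were FPKM, CPM, detection levels of 0.5 and 5 TPM, a pseudocount of 0.1, a filter on low genes, medians, another role for 4 genes, and leaving out each library. Programs were tested on simulated data. Python 3.11.15, numpy 2.4.6, pandas 2.3.3, matplotlib 3.10.9 and Biopython 1.88 were used.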

Additional observations from a re-analysis of the deposited data

How the results depend on the processing

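The count of 43 detected members ranged from 39 (detection level of 5 TPM) to 44 (0.5 TPM, or 1 CPM) and was 43 with FPKM and without each library. The added member was Rab13 at 0.5 TPM and Rab30 at 1 CPM. Rab30 averaged 1.57 CPM but 0.17 TPM, so its call depends on division by length. The count of 16 split paralog sets was 16 with FPKM and without each library and 15 with CPM, of which 14 were the same sets. With CPM the Rab5 set (1.37- to 1.48-fold) and the Rab6 set (1.93- to 2.10-fold) were no longer split and the Rab8 set was (2.53- to 3.04-fold). The count of 0 members whose highest library was 25% or more above the lowest was also 0 without each library. Differences between roles depended on the settings. Secretory minus endocytic (0.31) was 0.58 with a pseudocount of 0.1, 0.23 with FPKM, 0.72 with CPM, -0.17 among members of at least 1 TPM, -0.045 with medians and 0.070 with Rab8a, Rab8b, Rab10 and Rab13 counted as recycling. Secretory minus recycling (-0.30) was 0.12 with CPM, -0.15 among members of at least 1 TPM, -1.21 with medians and -0.82 with those 4 genes moved. Recycling minus endocytic (0.61) was 0.90 with a pseudocount of 0.1, 0.51 with FPKM, -0.017 among members of at least 1 TPM, 1.17 with medians and 0.89 with those genes moved. The filter leaves out the undetected members by construction. For the other settings the cause was not tested. Leaving out 1 library gave 0.31 to 0.32, -0.32 to -0.28 and 0.59 to 0.63. With CPM, Rab19 minus Rab43 became -0.61 and Rab34 minus Rab36 -0.15; no other paralog pair changed its sign under a pseudocount of 0.1, FPKM, CPM or without a library. Depth limits low members: no fold is given over a partner with fewer than 10 reads in all libraries together, and folds over Rab13 and Rab33a rest on 9 to 26.2 reads per library. No paired analysis was possible because the series has 1 group, so replicate numbers pair no samples across groups.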
